A study of Mus musculus with 6 samples.

Results

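The genes described here are the 3 Nr4a nuclear receptors (Nr4a1, Nr4a2 and Nr4a3), the early growth response factors Egr1, Egr2 and Egr3, and the Egr corepressors Nab1 and Nab2. They were taken by gene symbol, 8 genes of 55487 in the count files, and all 8 were among the 13691 genes that passed the filter on low counts (at least 10 counts in at least 3 libraries). RNA-seq compared the progeny of naive CD4 T cells of Foxo1TKO (n = 3) and Foxo1Ctrl (n = 3) mice. Foxo1TKO mice are CD4cre Foxo1 fl/fl animals, in which the Cre transgene deletes the Foxo1 gene in all T cells from a thymic stage on, and Foxo1Ctrl mice are Foxo1 fl/fl littermates without Cre. Both are of strain C57BL/6J. By the methods they also carry a Foxp3-GFP reporter and were young adults. Each culture held 50000 naive CD4 T cells from lymph nodes by its label (the methods give a larger number) and 250000 splenocytes of CD3eKO mice, which lack T cells of their own. Both genotypes received the same soluble anti-CD3 antibody at 0.1 µg/ml and were harvested after 4 days, and no unstimulated or earlier sample was analysed here. Nothing in the labels says that the 3 libraries of a genotype came from separate mice, so p-values measure the spread between these libraries.

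Nr4a and Egr genes are immediate early genes of the T-cell receptor response. Nr4a1 (Nur77), Nr4a2 (Nurr1) and Nr4a3 (Nor1) encode orphan nuclear receptors that act without a known physiological ligand. Their transcripts report recent antigen receptor signalling, and the encoded receptors limit effector function under persistent stimulation. Egr1, Egr2 and Egr3 encode zinc finger factors downstream of MAP kinase and calcineurin signalling, and Egr2 and Egr3 are known for their part in T-cell anergy. Nab1 and Nab2 bind Egr factors and recruit the NuRD chromatin-remodelling complex, and Nab2 is itself an Egr target, which forms a feedback loop.

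To show what lies before a start site of the genes with the largest differences, sequence for the Nr4a genes and Egr2 is given 5′ to 3′ from RefSeq promoter windows (build GRCm38.p6). Windows were matched by symbol, and annotated exon bases were left out. The Nr4a1 and Egr2 windows printed lie inside the annotated span of their genes, before an internal start site. Their matches do not describe the sequence before the outermost start. Capitals mark the cyclic AMP response element half-site TGACG on either strand, the Egr site GCGGGGGCG on either strand, or, in Egr2, a CArG box, the element bound by serum response factor.
Nr4a1, chr15:101266596-101266845, plus strand: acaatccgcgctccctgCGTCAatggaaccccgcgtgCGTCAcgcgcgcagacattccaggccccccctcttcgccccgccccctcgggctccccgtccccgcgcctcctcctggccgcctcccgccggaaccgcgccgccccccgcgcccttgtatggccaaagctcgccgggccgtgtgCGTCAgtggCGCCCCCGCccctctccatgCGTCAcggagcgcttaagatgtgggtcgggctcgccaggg
Nr4a2, chr2:57124004-57124253, minus strand: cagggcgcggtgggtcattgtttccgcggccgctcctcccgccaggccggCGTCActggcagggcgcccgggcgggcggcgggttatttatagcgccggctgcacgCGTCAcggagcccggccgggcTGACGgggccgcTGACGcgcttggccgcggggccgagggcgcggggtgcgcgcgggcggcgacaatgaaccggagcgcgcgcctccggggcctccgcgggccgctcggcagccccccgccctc
Nr4a3, chr4:48045055-48045152, plus strand: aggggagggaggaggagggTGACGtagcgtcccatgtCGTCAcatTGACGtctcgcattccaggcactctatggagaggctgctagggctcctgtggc
Egr2, chr10:67537619-67537868, plus strand: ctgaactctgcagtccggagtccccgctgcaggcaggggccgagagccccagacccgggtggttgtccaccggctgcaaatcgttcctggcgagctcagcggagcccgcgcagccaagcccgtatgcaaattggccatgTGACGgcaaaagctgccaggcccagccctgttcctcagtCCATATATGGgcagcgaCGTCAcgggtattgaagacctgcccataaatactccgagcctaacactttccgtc

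The 250 bases before the start site of its window held 4 TGACG half-sites in each of the 3 Nr4a genes. In Nr4a3 1 of these lay in an annotated exon and is not printed. At least 1 half-site was present in 17.7% of 32817 windows of that length and at least 3 in 0.689%. The Nr4a1, Nr4a2 and Nr4a3 windows had 74.4%, 80.0% and 63.6% GC. This and the other shares of windows given here are over all windows, not matched for GC content. The half-site was added to the search after these sequences had been read, so its count is a description. The Nr4a1 window held 1 Egr site GCGGGGGCG, found in 2.57% of windows. A CArG box, found in 1.47% of windows, stood in the printed Egr2 window and, with other letters, in the window before another Egr2 start site. None of the Nr4a, Egr2, Nab1 and Nab2 windows held the Nr4a site AAAGGTCA (1.34% of windows), the forkhead site GTAAACA (3.16%), the full response element TGACGTCA (1.55%) or the AP-1 site TGANTCA (6.75%). The NFAT core GGAAAA (20.4%) occurred in 1 Egr2 window, and the Egr site GCGTGGGCG (0.536%) occurred 2 times in Nab1, beside 1 GCGGGGGCG. All of these Nab1 matches lay in annotated exon, which covered 231 of the 250 bases of that window. Matches in any of these genes show letters in a window and not binding, and the windows of Egr1 and Egr3 are not used here.

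Library totals ran from 14783890 to 19675447 expected counts, and values below are TMM-normalized counts unless named otherwise. Foxo1 itself had 85.4, 46.5 and 115 normalized counts in the Foxo1TKO libraries against 1529, 2285 and 1598 in Foxo1Ctrl, and all 6 genes of the list of Foxo1 and its targets were lower (Klf2 and S1pr1 fell most). Of all genes tested, 23.0% were called different (3144 genes), 11.1% were called higher in Foxo1TKO, and 21.5% had every Foxo1TKO library above every Foxo1Ctrl library. A call required an adjusted p under 0.05 by edgeR's quasi-likelihood test (Benjamini-Hochberg over all genes tested) and a fold change over 1.5. The median log2 fold change of all genes was 0.011. T-cell markers were abundant in every library, with summed counts of 138272 to 146894 in Foxo1TKO and 153028 to 174840 in Foxo1Ctrl. Of these 8 markers Cd28 (log2 fold change -1.43) was called lower and 7 were not called. B-cell markers, 10 of 11 tested, summed to 5275 to 6332 in Foxo1TKO and 13240 to 21956 in Foxo1Ctrl, most of it Ighm. Of those tested 5 were called lower and 5 were not called, Ighd (log2 fold change 0.17) and Cr2 (0.19) among the latter. Of the macrophage markers 1 of 8 passed the filter and of the neutrophil markers 0 of 5, and C1qa and Ly6g had at most 3 counts in every library. Dendritic cell markers, 3 of 6 tested, summed to 547 to 622 in Foxo1TKO and 143 to 262 in Foxo1Ctrl. Of these Itgax, the CD11c integrin gene, was called higher, with 349.9, 411 and 485 counts in Foxo1TKO and 1.19, 0 and 0.969 in Foxo1Ctrl. Itgax made up most of the Foxo1TKO sum. The other dendritic cell markers tested, Zbtb46 (log2 fold change -0.48) and Xcr1 (0.44), were not called. Of 4 plasma cell markers tested 3 were lower (Jchain, Irf4 and Prdm1), and Xbp1 (log2 fold change -0.01) was not called. Irf4 also stands in the list of genes linked to Nr4a factors in T cells, given below. Of 2 NK cell markers tested Nkg7 was higher, and Klrb1c (log2 fold change -0.68) was not called. The 1 CD8 T cell marker, the 2 regulatory T cell markers and the 3 erythroid markers tested were not called. The part of these cell types in the members' values was not tested, and in such bulk samples fewer cells of a type and less RNA per cell cannot be told apart.

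All 8 members had a higher mean in Foxo1TKO cultures, and 5 of 8 were called higher, where 11.1% of all genes were. These were the 3 Nr4a genes, Egr1 and Egr3. Egr2, Nab1 and Nab2 were not called. In 7 of 8 members every Foxo1TKO library lay above every Foxo1Ctrl library, against 21.5% of all genes, and Nab2 was the exception. The members were chosen with earlier results of these data known, so both counts are a description. Without Foxo1TKO 1 or without Foxo1Ctrl 1 the number called was 3.

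**Figure D1:**
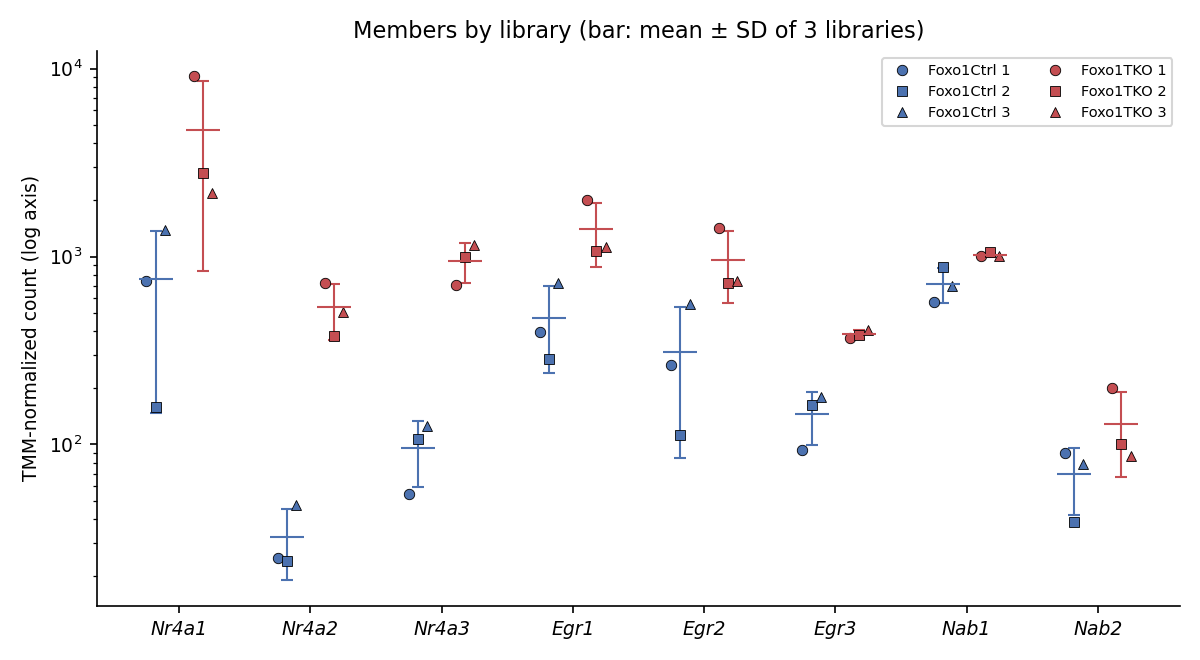
TMM-normalized counts of the 8 members (log axis) in 3 Foxo1Ctrl (blue) and 3 Foxo1TKO (red) libraries, with a marker shape for each replicate number and bars for mean ± SD. The red points lie above the blue ones in each gene except Nab2, where they overlap.

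Nr4a2 and Nr4a3 gave the largest fold changes of the 8 genes, and Nr4a1 the widest spread. Nr4a2, known from dopaminergic neurons as well as from T cells, had 726, 376 and 507 normalized counts in Foxo1TKO 1, 2 and 3. It had 25, 24 and 47.5 in Foxo1Ctrl 1, 2 and 3, from 21, 21 and 49 expected counts. The groups were far apart, the lowest Foxo1TKO library standing 7.93-fold above the highest Foxo1Ctrl library. Nr4a2 rose by 4.01 ± 0.38 on the log2 scale (SE, n = 3 per genotype), or 16.1-fold, with a 95% interval of 3.13 to 4.88 (edgeR's quasi-likelihood test, Benjamini-Hochberg adjusted p = 0.000373). The gene lies on chr2:57106830-57124003, minus strand.

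Nr4a3, which acts redundantly with Nr4a1 in several lymphoid settings, had 701, 992 and 1149 counts in Foxo1TKO and 54.8, 107 and 126 in Foxo1Ctrl. Library 1 was the lowest of its genotype in both groups, and the groups did not overlap. The log2 fold change was 3.28 ± 0.34 (95% interval 2.49 to 4.08), or 9.73-fold, with an adjusted p of 0.000603 (edgeR quasi-likelihood test, Benjamini-Hochberg). Nr4a3 lies on chr4:48045153-48086447, plus strand. Nr4a2 and Nr4a3 were called in every alternative fit and in all 6 fits that left out 1 library.

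Nr4a1, the member most used as a reporter of T-cell receptor signalling, had 9128, 2768 and 2183 counts in Foxo1TKO and 738, 158 and 1384 in Foxo1Ctrl. Foxo1TKO 1 stood 4.18-fold above Foxo1TKO 3, and Foxo1Ctrl 3 stood 8.77-fold above Foxo1Ctrl 2, so that the spread within a genotype was of the order of the difference between genotypes. The groups still did not overlap, with the lowest Foxo1TKO library 1.58-fold above the highest Foxo1Ctrl library. Its log2 fold change was 2.62 ± 0.80 (95% interval 0.76 to 4.48), with an adjusted p of 0.0490 (edgeR quasi-likelihood test, Benjamini-Hochberg). The call was lost in 5 of 6 fits that left out 1 library. The log2 fold change and edgeR quasi-likelihood adjusted p were 1.70 and 0.123 without Foxo1TKO 1, 2.92 and 0.0749 without Foxo1TKO 2, 2.97 and 0.0521 without Foxo1TKO 3, 2.62 and 0.130 without Foxo1Ctrl 1, and 2.17 and 0.0565 without Foxo1Ctrl 2. Nr4a1 lies on chr15:101254269-101274795, plus strand.

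**Figure D2:**
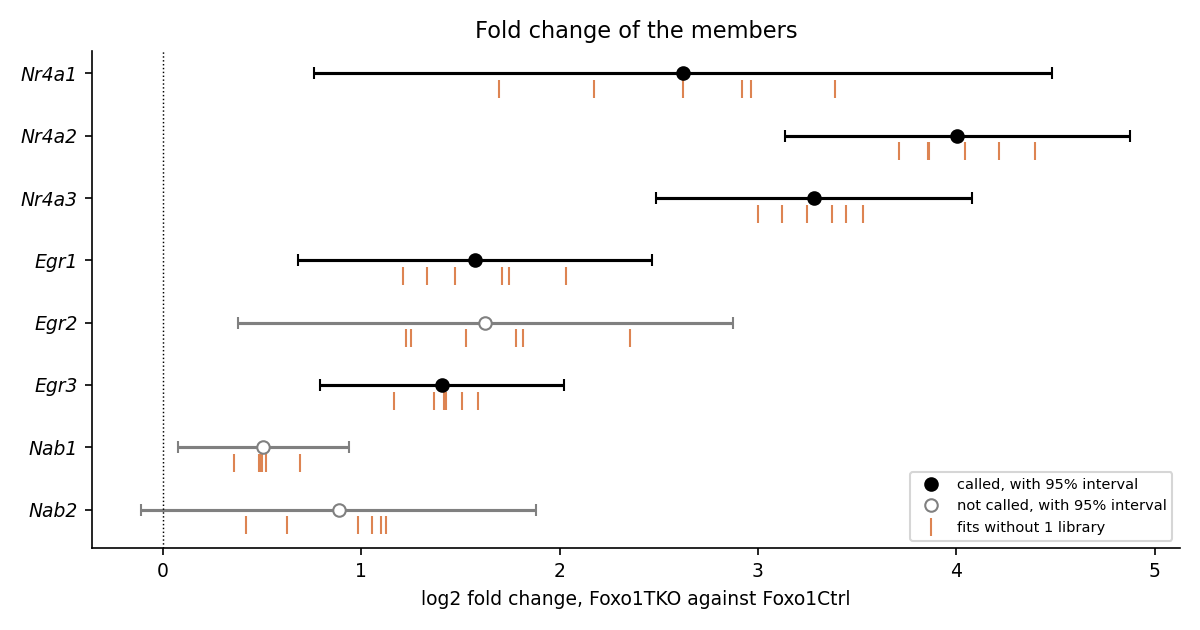
Log2 fold change of each member, Foxo1TKO against Foxo1Ctrl, with 95% interval (filled circles called, open circles not called) and, below each, the 6 estimates without 1 library (orange ticks). All estimates are above 0, and the interval of Nab2 includes 0.

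Among the Egr factors Egr1 and Egr3 rose, while Egr2 had a fold change of similar size and did not pass the test. Egr1, a rapid serum and antigen receptor response gene, had 2004, 1074 and 1118 counts in Foxo1TKO and 398, 285 and 725 in Foxo1Ctrl. The groups did not overlap, and Foxo1TKO 1 and Foxo1Ctrl 3 were the highest of their genotypes. Foxo1TKO exceeded Foxo1Ctrl by a log2 fold change of 1.57 ± 0.39 (95% interval 0.68 to 2.46), or 2.97-fold, with an adjusted p of 0.0218 (edgeR quasi-likelihood test, Benjamini-Hochberg). The call was lost without Foxo1TKO 1 (1.21, edgeR adjusted p = 0.0507) and without Foxo1Ctrl 1 (1.47, edgeR adjusted p = 0.0766). Egr1 lies on chr18:34859823-34864984, plus strand.

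Egr3, which shares targets with Egr2 in T cells, was the most even member of the family, with 368, 384 and 409 counts in Foxo1TKO. Foxo1Ctrl libraries had 93.0, 162 and 179. The lowest Foxo1TKO library was 2.05-fold above the highest Foxo1Ctrl library. The log2 fold change was 1.41 ± 0.27 (95% interval 0.79 to 2.02), or 2.65-fold, with an adjusted p of 0.00757 (edgeR quasi-likelihood test, Benjamini-Hochberg), and the call was kept in every alternative fit. Egr3 lies on chr14:70077203-70082614, plus strand.

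Egr2, the Egr factor most tied to T-cell anergy, had 1423, 721 and 744 counts in Foxo1TKO and 264, 112 and 556 in Foxo1Ctrl. Foxo1Ctrl 3 stood 4.96-fold above Foxo1Ctrl 2 and came within 1.3-fold of the lowest Foxo1TKO library, and the groups did not overlap. Its log2 fold change was 1.63 ± 0.54 (95% interval 0.38 to 2.87), with an adjusted p of 0.0637 (edgeR quasi-likelihood test, Benjamini-Hochberg). Egr2 was not called in 5 of 6 fits that left out 1 library, with 1.22 without Foxo1TKO 1 (edgeR adjusted p = 0.153), 1.25 without Foxo1Ctrl 2 (0.0757) and 1.53 without Foxo1Ctrl 1 (0.167). Without Foxo1Ctrl 3 it was 2.35 (edgeR adjusted p = 0.0204) and called, and DESeq2's Wald test on all libraries gave 1.65 (adjusted p = 0.00675). Egr2 lies on chr10:67535475-67542188, plus strand. Of the other genes with Egr-type zinc fingers, Egr4 had 7, 5 and 2 expected counts in Foxo1TKO and 0 in each Foxo1Ctrl library, Wt1 had 0 in all 6, and neither was tested.

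The corepressors had the smallest fold changes, and neither was called. Nab1, the broadly expressed family member, had 1008, 1052 and 1000 counts in Foxo1TKO and 575, 878 and 701 in Foxo1Ctrl. The groups did not overlap, but Foxo1Ctrl 2 came within 1.14-fold of the lowest Foxo1TKO library. Foxo1TKO exceeded Foxo1Ctrl by a log2 fold change of 0.51 ± 0.19 (95% interval 0.08 to 0.94), with an adjusted p of 0.0874 (edgeR quasi-likelihood test, Benjamini-Hochberg). Without Foxo1Ctrl 2 it was 0.69 (edgeR adjusted p = 0.0192), and it was not called in the 5 other fits that left out 1 library. Nab1 lies on chr1:52457294-52500679, minus strand.

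Nab2, the inducible corepressor, had 199, 100 and 86.9 counts in Foxo1TKO and 90.6, 38.9 and 78.5 in Foxo1Ctrl. Foxo1TKO 3 lay below Foxo1Ctrl 1, so the groups overlapped. The log2 fold change was 0.89 ± 0.43 (95% interval -0.11 to 1.88), with an adjusted p of 0.179 (edgeR quasi-likelihood test, Benjamini-Hochberg), an interval that includes both no change and a rise larger than that of Egr1. Nab2 lies on chr10:127660918-127668568, minus strand. Its exons are the only ones among the 8 members that overlap exons of other genes, all on the plus strand. It shares 40 exon bases with Stat6, 151 with Nemp1 and 1050 of its 2941 with the antisense gene Gm16229. Gm16229 had 1.2 expected counts in Foxo1Ctrl 1 and 0 in the other libraries, and whether the counting used strand is not given in the sources used here, so reads of Nab2 and its antisense partners cannot be told apart. Stat6 (log2 fold change 0.09 ± 0.56) and Nemp1 (0.62 ± 0.28) were not called.

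Levels of different genes were compared in TPM, the deposited unit that scales reads by transcript length and library size. In Foxo1TKO cultures Nr4a1 had the highest mean level (143 ± 128 TPM, SD, n = 3), followed by Egr1 (31.5 ± 13.97), Egr2 (23.6 ± 11.97), Nab1 (20.4 ± 1.38), Nr4a3 (14.5 ± 1.75), Nr4a2 (11.4 ± 4.68), Egr3 (6.94 ± 0.25) and Nab2 (4.01 ± 2.06). Neighbours overlapped between Egr1 and Egr2, between Egr2 and Nab1, and between Nr4a3 and Nr4a2. In Foxo1Ctrl the order was Nr4a1 (22.5 ± 18.8 TPM), Nab1 (13.2 ± 1.94), Egr1 (10.2 ± 5.51), Egr2 (7.66 ± 6.04), Egr3 (2.5 ± 0.79), Nab2 (2.11 ± 0.96), Nr4a3 (1.37 ± 0.71) and Nr4a2 (0.66 ± 0.30), and every pair of neighbours overlapped. By their means, Nr4a2 and Nr4a3 were the lowest of the 8 genes in Foxo1Ctrl and stood above Egr3 and Nab2 in Foxo1TKO.

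**Figure D3:**
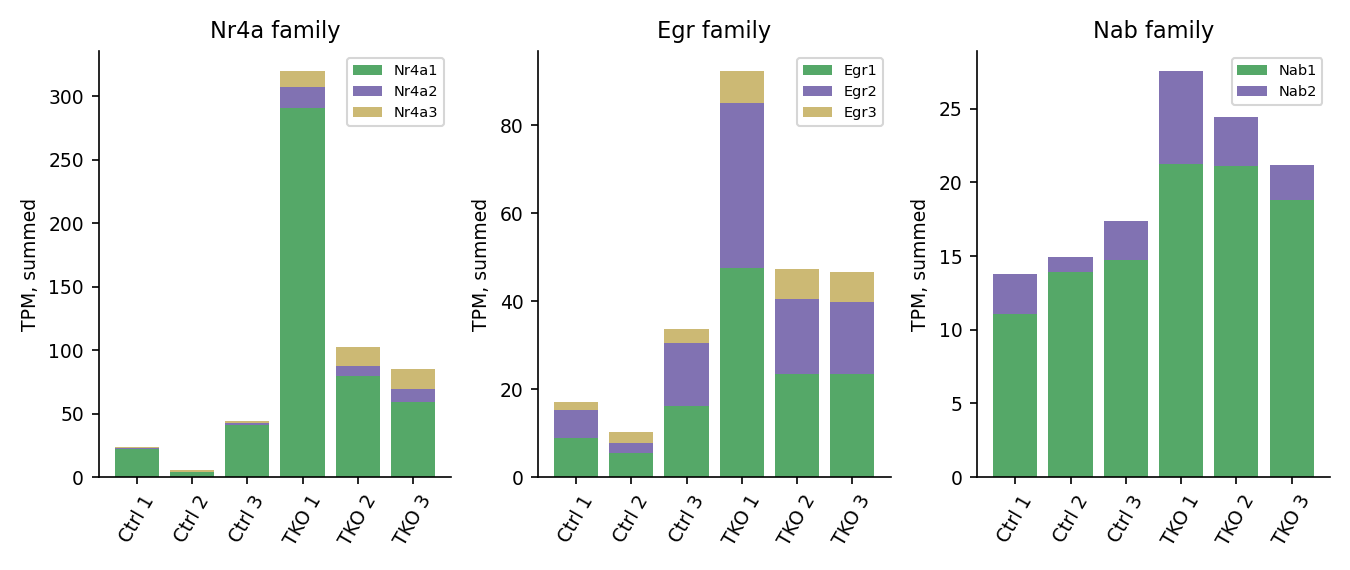
TPM of the members stacked by family (Nr4a, Egr, Nab) for each library, with Foxo1Ctrl on the left and Foxo1TKO on the right of each panel and a separate vertical scale for each panel. Nr4a1 makes up most of the Nr4a sum, which is highest in Foxo1TKO 1 at 319.6 TPM.

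The summed Nr4a level was 319.6, 102.1 and 85.1 TPM in Foxo1TKO and 23.6, 5.56 and 44.6 TPM in Foxo1Ctrl. The Egr sum was 92.3, 47.3 and 46.6 TPM in Foxo1TKO and 17.0, 10.3 and 33.7 TPM in Foxo1Ctrl. Neither sum overlapped between genotypes. The differences of the log2 sums were 2.96 for Nr4a and 1.70 for Egr, each with p = 0.1 in a two-sided exact permutation test, the smallest p that 3 against 3 libraries allow, so the design could not reach 0.05. Nr4a1 held 69.4% to 90.9% of the Nr4a sum in Foxo1TKO and 69.6% to 94.7% in Foxo1Ctrl. Egr1 held about the same share of the Egr sum in both genotypes, 50.5% ± 1.01 in Foxo1TKO and 51.1% ± 2.58 in Foxo1Ctrl (SD, n = 3, two-sided exact permutation p = 0.8).

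The ratio of factor to corepressor was read within each library as the Egr sum over the Nab sum of TPM. It was 3.35, 1.94 and 2.20 in Foxo1TKO and 1.24, 0.687 and 1.94 in Foxo1Ctrl. Foxo1Ctrl 3 lay level with Foxo1TKO 2, so the groups overlapped. The mean log2 ratio was 1.28 ± 0.41 in Foxo1TKO and 0.24 ± 0.75 in Foxo1Ctrl (SD, n = 3, two-sided exact permutation p = 0.2). The difference of the means was 1.04. The smallest p this permutation test allows is 0.1, and the p of 0.2 lay above that floor.

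RSEM's effective length of a gene moves with the estimated mix of its transcripts and, to a small extent, with the library's fragment length. Each member has between 2 and 7 annotated transcripts. In 0 of 8 members did the effective lengths of the genotypes separate, against 12.2% of genes with more than 1 transcript. The exact two-sided permutation p ranged from 0.4 to 1. Nr4a3 varied most, with 4067, 4378 and 4409 bases in Foxo1TKO and 5015, 4960 and 3991 bases in Foxo1Ctrl, where Foxo1Ctrl 3 lay below all Foxo1TKO libraries.

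Members differed in how they varied within a genotype. Deviations from the genotype's mean, in log2 normalized counts, put Nr4a1 1.261 above in Foxo1TKO 1, 1.34 above in Foxo1Ctrl 3 and 1.78 below (-1.78) in Foxo1Ctrl 2. Egr1 and Egr2 were likewise highest in Foxo1TKO 1 and Foxo1Ctrl 3 and lowest of Foxo1Ctrl in Foxo1Ctrl 2, with Egr2 at 0.64, 1.12 and -1.18. Nab2 was also high in Foxo1TKO 1 (0.73) and low in Foxo1Ctrl 2 (-0.73), but its highest Foxo1Ctrl library was Foxo1Ctrl 1 (0.47). Nr4a3, Egr3 and Nab1 had positive values in Foxo1Ctrl 2 (0.24, 0.22 and 0.31) and negative ones in Foxo1Ctrl 1 (-0.71, -0.58 and -0.30). The 6 libraries also differed by GC content over 13679 genes, the correlation across genes of a library's deviation with GC being 0.33 in Foxo1TKO 1 and -0.36 in Foxo1Ctrl 2. The longest transcripts of Nab2, Egr1 and Nr4a1 had 60.1%, 57.3% and 57.0% GC, and those of Nab1, Nr4a2 and Nr4a3 had 47.2%, 47.9% and 48.4%. Egr2 and Egr3 had 51.43% and 51.35%, and their deviations in Foxo1Ctrl 2 differed in sign. Nr4a2 was also negative in Foxo1Ctrl 2 (-0.34). With a correction for GC content, added after the data were seen, Nr4a1 was at 2.53 (edgeR adjusted p = 0.0227) and Egr2 at 1.59 (edgeR adjusted p = 0.0425). The root mean square deviation within genotypes went from 1.38 to 1.11 for Nr4a1 and from 0.90 to 0.82 for Egr2. That of Nab2 went from 0.64 to 0.33 and that of Egr3 from 0.36 to 0.41. The cause of the deviations, and the part of GC content in them, was not tested.

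**Figure D4:**
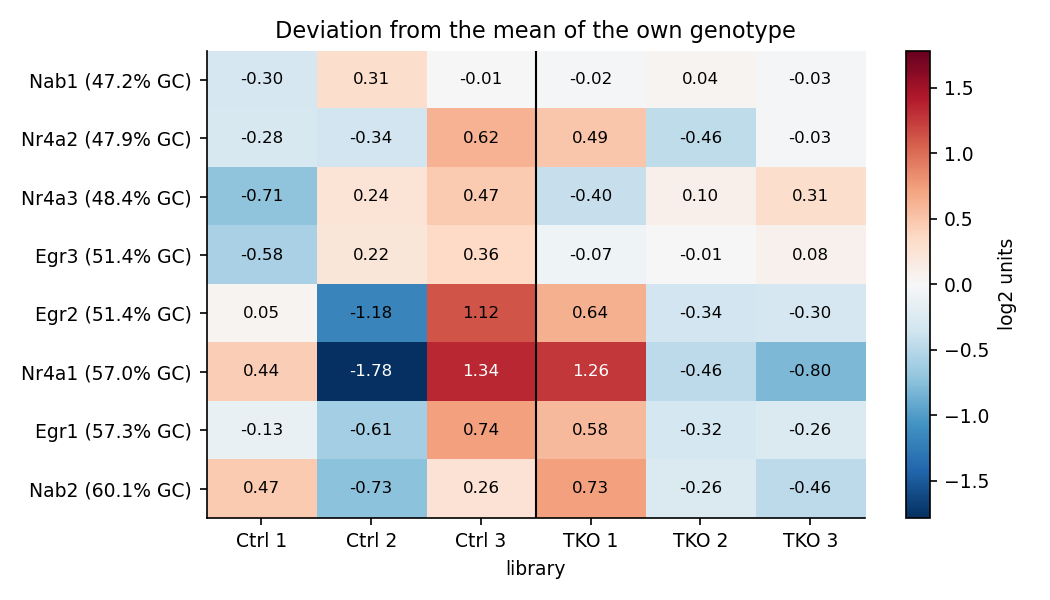
Deviation of each member in each library from the mean of its own genotype (log2 normalized counts, red above and blue below), with genes ordered by GC content of the longest transcript. Nr4a1 spans from -1.78 in Foxo1Ctrl 2 to 1.34 in Foxo1Ctrl 3.

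The genes whose profile over the 6 libraries was most like that of each family were found among 9228 genes outside the members whose mean normalized count was 100 or more. Pearson's r was taken over 6 libraries that share the genotype difference, and 461 genes passed 0.95 for Nr4a, 241 for Egr and 175 for Nab. For Nr4a the 3 closest were Nudc, Myc and Fdx1l (r from 0.998 to 0.999), and the growth regulator Myc had a log2 fold change of 1.82. For Egr they were Pou2af1, Fos and Mapkap1 (r from 0.994 to 0.996), and for Nab Slc25a25, Zfp94 and Atp5b (r from 0.995 to 0.996).

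Genes related to the members moved in both directions. Of all 13691 genes tested, 1525 (11.1%) were called higher and 1619 lower, which the counts of each list below stand against. Of 18 activation-induced early genes tested, 7 were higher and 1 was lower, with a median log2 fold change of 0.20 against 0.011 for all genes. Myc rose by 1.82 and the AP-1 subunit gene Fos by 1.51, whereas the antiproliferative gene Btg2 fell by 1.05 on the log2 scale. Junb (0.19) and Jun (-1.67) did not pass the test.

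Genes linked to the factors in T cells were split. Of 17 genes linked to Egr2 and Egr3, 4 were higher and 4 lower (median -0.35), led by Nrgn (4.95) and the adhesion receptor Crtam (3.603) among those that rose and by the cytokine signalling suppressor Socs3 (-5.36) and the diacylglycerol kinase gene Dgka (-2.45) among those that fell. Of 15 genes linked to Nr4a factors, 5 were higher and 6 lower (median -0.57). The PD-1 gene Pdcd1 (4.57) and the Helios gene Ikzf2 (2.68) rose most, and Ctla4 (-4.18) and Il21 (-3.61) fell most. Il21 was near the detection floor in Foxo1TKO, with 0.845, 5.26 and 0 normalized counts.

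Among partners of Nr4a receptors and subunits of the NuRD complex that Nab proteins recruit, 5 of 14 genes tested were higher and 0 lower (median 0.36). Mbd3, a methyl-CpG-binding-domain subunit of NuRD, rose by 2.32 and the deacetylase gene Hdac2 by 1.39. Of 16 factors upstream of Egr and Nr4a genes, 3 were higher and 0 lower (median -0.09), where 11.1% of all genes were called higher. Elk3, which encodes a ternary complex factor, rose by 0.94.

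**Figure D5:**
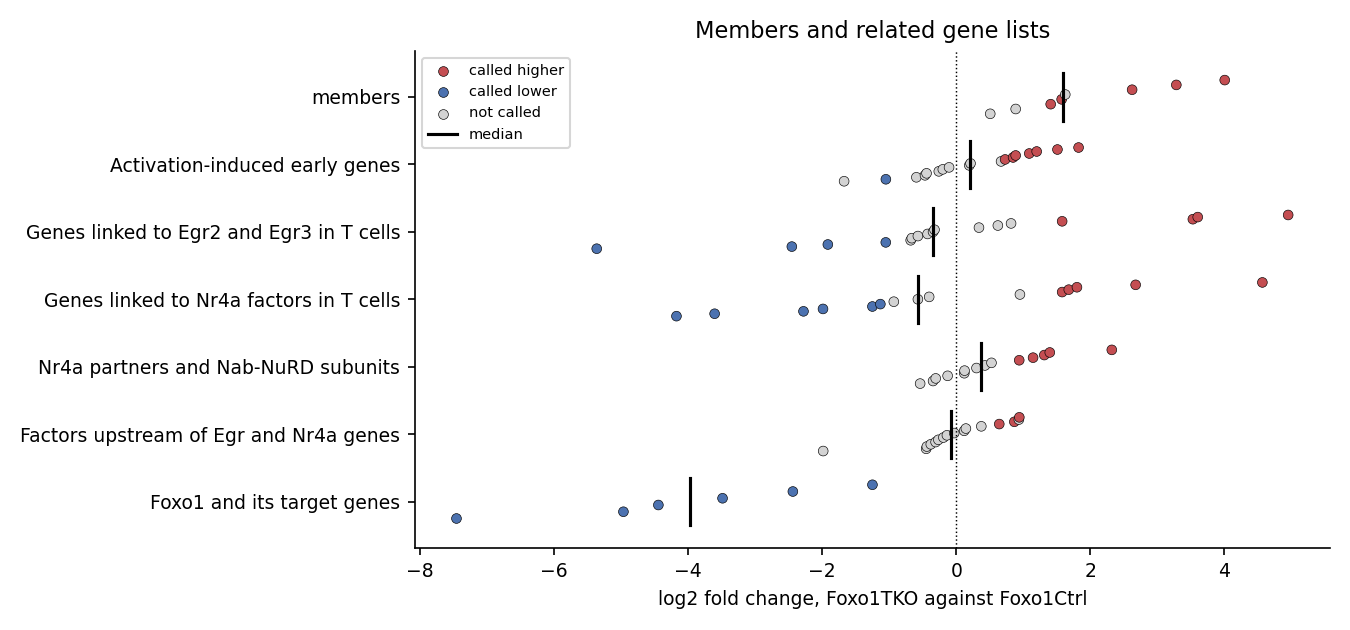
Log2 fold change, Foxo1TKO against Foxo1Ctrl, of the members and the genes tested in 6 related lists (red called higher, blue called lower, grey not called), with a black bar at each median. All members lie above 0, whereas the lists linked to Egr and Nr4a factors hold genes on both sides.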

How the data were processed

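RNA-seq of 6 cultures was analysed, with groups and replicate numbers from the sample labels. Per the labels and the study's methods, the authors aligned reads with STAR 2.7.6a to GRCm38 and counted them with RSEM 1.3.1. The deposited expected counts per gene are raw estimates, which were rounded before testing. The deposited TPM and effective lengths are RSEM's own estimates. The authors also deposited a normalized signal for 13564 genes (DESeq2 size factors), used only in an alternative. Trimming and strandedness are not given in the sources used here.

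The 13691 of 55487 genes that reached 10 counts in 3 or more libraries were tested with edgeR 4.0.16 in R 4.3.3 (TMM, quasi-likelihood F test, prior count 1, genotype only, Benjamini-Hochberg adjustment). Calls needed an adjusted p under 0.05 and a fold over 1.5. Sums and ratios of TPM were tested by two-sided exact permutation over libraries. Positions, overlaps and transcript GC came from GENCODE M21 (GRCm38), and promoter windows from RefSeq.

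The members and gene lists were chosen with earlier results of these data known. The genes named are the members, the genes that overlap their exons, the 2 called genes with the largest rise and the 2 with the largest fall in each list, and the 3 genes closest in profile to each family. Some genes of the lists are not reported here. Junb, Jun, Stat6, Ighm, Ighd, Cr2, Cd28, Jchain, Irf4, Prdm1, Xbp1, Nkg7, Klrb1c, Zbtb46, Xcr1 and the markers near 0 were named after their values were seen or as markers. Alternatives were DESeq2 1.42.0, limma 3.58.1 (voom, and log2 of the signal plus 1), other scalings and filters, effective length offsets, a replicate block, other thresholds and each library left out. The scripts were tested on simulated counts. Counting depth limits low genes most, such as Nr4a2 in Foxo1Ctrl. Figures were drawn with matplotlib 3.10.9.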

Additional observations from a re-analysis of the deposited data

How the results depend on the processing

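Nr4a2, Nr4a3 and Egr3 were called higher in every fit run, and were the 3 members called among 1597 genes at an adjusted p under 0.01. All 8 members kept a positive fold change in all fits. The number of genes called ranged from 1854 to 3321 when 1 library was left out (1854 without Foxo1TKO 2, 2031 without Foxo1Ctrl 1), and that of members from 3 to 6. Without 1 library, the log2 fold change ranged from 1.70 to 3.39 for Nr4a1, from 1.21 to 2.03 for Egr1, from 1.22 to 2.35 for Egr2, from 0.36 to 0.69 for Nab1 and from 0.42 (without Foxo1TKO 1) to 1.12 (without Foxo1Ctrl 1) for Nab2, which was called in none of these fits. The number of members whose effective lengths separated ranged from 0 to 2. Nr4a1 was not called by limma on the deposited signal (2.81, adjusted p = 0.0756). Egr2 was called by DESeq2 (1.65), limma-voom (1.82), edgeR without a filter on low counts (1.65) and edgeR with a GC correction (1.59). The cause was not tested. The sums of TPM and the Egr to Nab ratio kept their direction with normalized counts in place of TPM and without any 1 library, moving by less than the spread between libraries.

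The labels do not say whether libraries of the same replicate number belong together. For flow cytometry of such cultures the paper paired the genotypes by experiment. Deviations of same-numbered libraries correlated across genes at 0.43, 0.20 and -0.11, the first being the highest of all pairs. Foxo1TKO 3 correlated best with Foxo1Ctrl 2 (0.30). With so few libraries, which also differed by GC content, these correlations cannot decide whether the numbers pair the libraries. With the replicate number as a block, 3318 genes and 6 members were called, Egr2 among them (1.84). With the block and the GC correction, 3629 genes and 7 members were called, with Egr2 at 1.77 and Nab1 at 0.59. Depth limits Nr4a2, which rests on 21 to 49 expected counts in Foxo1Ctrl.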
